A study of Mus musculus with 8 samples.

Results

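The endoplasmic reticulum (ER) folding and stress genes are the 30 genes described here, out of 31053 genes in the count table. They were taken by symbol from Ensembl gene identifiers with the GENCODE vM21 annotation of GRCm38, and all 30 were found. After the filter on low counts 29 of them were among the 11080 genes tested, and the remaining one, Derl3, had too few counts. The RNA came from vWAT (visceral white adipose tissue, epididymal according to the sample titles) of 4 KIKO and 4 WT male mice of the C57BL/6 strain at 8 months of age, with 1 library per mouse. KIKO mice carry one knocked-in and one knocked-out allele of the same gene in every cell. WT mice were littermates with neither allele.

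The ER is where secreted and membrane proteins enter the secretory route, are folded, receive N-linked glycans and form disulfide bonds. When unfolded proteins accumulate, the sensors ATF6, IRE1 (encoded by Ern1) and PERK (encoded by Eif2ak3) start the unfolded protein response, in which ATF6 and the spliced form of XBP1 switch on genes of chaperones, folding enzymes and ER-associated degradation, while PERK slows translation. Adipocytes secrete large amounts of leptin, adiponectin and other proteins, and this response has been studied in fat tissue mainly in obesity.

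A sequence known to drive many of these genes in that response is the ER stress response element (ERSE), in which NF-Y binds the CCAAT part and ATF6 or XBP1 the CCACG part. Promoters from RefSeq (GRCm38.p6, 250 bases before to 50 after the start of each gene) were listed for 25 of the 30 members, and not for Atf6, Derl1, Hyou1, Manf and Sec61a1. The ERSE was searched as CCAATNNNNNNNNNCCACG on both strands, and 9 of 25 members held it, against 0.137% of the 27025 genes with a listed promoter of the same length. The related ERSE-II, searched as ATTGG and CCACG with 1 base of any kind between them, on both strands, was in 2 members, Herpud1 and Dnajb11, against 0.0444% of these genes. CCACG alone, which is part of both elements, was in 21 of 25 members and in 35.5% of these genes, and the XBP1 motif TGACGTGG was in 0 of 25 members and in 0.714% of these genes. A match is a description of letters and no evidence of binding in these mice.

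The 250 bases before the RefSeq start are shown for Calr and Canx, the members whose KIKO levels were all above the WT levels, and for Hspa5, the member in which the element has been studied most. They are read 5′ to 3′ on the gene's strand, and capitals mark the ERSE.
Calr: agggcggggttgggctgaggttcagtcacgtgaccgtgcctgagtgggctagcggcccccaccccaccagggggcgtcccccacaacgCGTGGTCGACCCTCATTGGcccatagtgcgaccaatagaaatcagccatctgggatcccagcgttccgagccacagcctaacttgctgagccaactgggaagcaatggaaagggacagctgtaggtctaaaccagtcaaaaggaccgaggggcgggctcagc
Canx: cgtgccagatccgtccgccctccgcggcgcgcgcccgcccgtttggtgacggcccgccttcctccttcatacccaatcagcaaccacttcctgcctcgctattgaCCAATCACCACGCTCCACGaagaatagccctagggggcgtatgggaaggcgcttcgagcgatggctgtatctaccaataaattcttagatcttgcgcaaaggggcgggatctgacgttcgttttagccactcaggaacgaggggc
Hspa5: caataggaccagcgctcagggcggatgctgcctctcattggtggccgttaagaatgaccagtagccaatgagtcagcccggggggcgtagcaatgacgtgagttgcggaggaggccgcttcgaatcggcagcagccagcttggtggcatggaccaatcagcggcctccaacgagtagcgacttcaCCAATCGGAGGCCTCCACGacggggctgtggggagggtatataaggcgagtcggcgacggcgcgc
The stretches lie at chr8:84846932-84847181 on the minus strand for Calr, chr11:50325674-50325923 on the minus strand for Canx and chr2:34771840-34772089 on the plus strand for Hspa5. Counted from the start site, the element lies at -162 to -144 in Calr, where it is read on the opposite strand and so appears as its reverse complement, at -145 to -127 in Canx and at -65 to -47 in Hspa5. The start of Hspa5 in GENCODE lies further upstream than the RefSeq start.

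The other members with an ERSE are shown with 10 bases on each side, again on the gene's strand with the element in capitals, so that the spacing and the varying middle can be compared.
Hsp90b1 (chr10:86705628-86705666): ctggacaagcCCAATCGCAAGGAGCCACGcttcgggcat
Hsp90b1 (chr10:86705523-86705561): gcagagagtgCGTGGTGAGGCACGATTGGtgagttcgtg
Dnajc3 (chr14:118937817-118937855): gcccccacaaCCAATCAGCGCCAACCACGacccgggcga
Pdia6 (chr12:17266481-17266519): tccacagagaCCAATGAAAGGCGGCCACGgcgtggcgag
Syvn1 (chr19:6046522-6046560): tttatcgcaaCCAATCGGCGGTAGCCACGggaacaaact
Creld2 (chr15:88819510-88819548): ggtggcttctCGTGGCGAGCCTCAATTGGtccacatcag
Derl3 (chr10:75893232-75893270): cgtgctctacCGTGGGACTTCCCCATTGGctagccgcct
Hsp90b1 was the member with 2 copies, at -212 to -194 and -107 to -89 from the start site, and the second of these, like those of Creld2 and Derl3, is on the opposite strand. The ERSE-II elements alone, without flanks, were as follows.
Herpud1 (chr8:94386377-94386387): ATTGGGCCACG
Dnajb11 (chr16:22857852-22857862): ATTGGCCCACG
That of Herpud1 lies at -52 to -42 and that of Dnajb11 at 7 to 17 from the start site, inside the transcribed part of Dnajb11. Pdia4, the member with the largest fold change below, held none of these elements in its listed promoter. There CCACG occurred once, at 36 to 40 after the RefSeq start site. That promoter, chr6:47813463-47813762 on the minus strand, ends before the GENCODE start of Pdia4 at chr6:47813430. Bases next to the GENCODE start were thus not searched.

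The 8 libraries held 2602189 to 3478539 counts. Levels are given as CPM (counts relative to the library total) scaled by the TMM method, fold changes are KIKO over WT on the log2 scale from edgeR's quasi-likelihood test, and a gene passed at a Benjamini-Hochberg adjusted p under 0.05 over all genes tested. Among the 11080 genes, 31 passed as higher and 44 as lower in KIKO mice. In a principal component analysis of the tested genes, the first component placed KIKO mice at 4.04 to 24.0 and WT mice 1, 2 and 4 at -38.6 to -8.43, with WT mouse 3 at 12.6 inside the KIKO range, and values without that mouse are given where they change a call. Spearman's rho across genes between transcript length and a library's level relative to the mean over libraries was -0.214 to -0.0843 in KIKO mice, against -0.110 to 0.262 in WT mice (2-sided exact permutation test of 4 against 4 mice, p = 0.0571). Across the genes tested, which are not independent, Spearman's rho between the log2 fold change and transcript length was -0.282, and the tested members range in transcript length from 723 bases in Sec61b to 9333 bases in Ssr1. In a fit corrected for transcript length and GC content no member passed, the members' median log2 fold change was 0.13, and the log2 fold change was 0.76 for Pdia4, 0.50 for Calr and 0.46 for Canx.

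None of the 29 tested members passed in edgeR, where 0.677% of all genes did (0.28% higher and 0.397% lower in KIKO mice). At an unadjusted p under 0.05 there were 8 of 29 members, or 27.6%, against 16.2% of all genes, and all 8 were higher in KIKO mice, against 7.13% of all genes in that direction and 9.06% in the other. These were Pdia4, Calr, Canx, Sec61a1, Hspa5, Derl1, Dnajc3 and Dnajb9. In other fits the count fell to 4 of 29 members with the replicate number as a block (1427 of 11080 genes). It was 5 of 29 without KIKO mouse 2 (1768 of 11287 genes) and rose to 9 of 29 with the length and GC correction (1605 of 11080 genes). Members are not independent of each other. Over the 8 mice, Pearson's r was 0.96 for Calr with Canx, 0.97 for Calr with Pdia4 and 0.94 for Canx with Pdia4. DESeq2 called 3 of the 22 members to which it gave an adjusted p, namely Calr, Canx and Pdia4, all higher in KIKO mice, against 1.95% of genes higher and 1.82% lower in KIKO mice, and neither limma-voom nor limma-trend called a member. In edgeR, Calr and Pdia4 passed as higher when the low-count filter was left out (0.807% of all genes higher and 1.3% lower) and when WT mouse 1 was left out (0.223% of all genes higher and 0.205% lower). The log2 fold change was above 0 for 20 of 29 members (69.0%), against 49.0% of all genes tested. Its median over the members was 0.12, from -0.69 in Ppp1r15a to 0.80 in Pdia4, beside a median of -0.0071 over all genes tested, whose interquartile range was -0.21 to 0.18. Scaling by library size alone moved the median of all genes to -0.078 and that of the members to 0.050. The plot of fold changes with intervals shows the members by role.

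**Figure D1:**
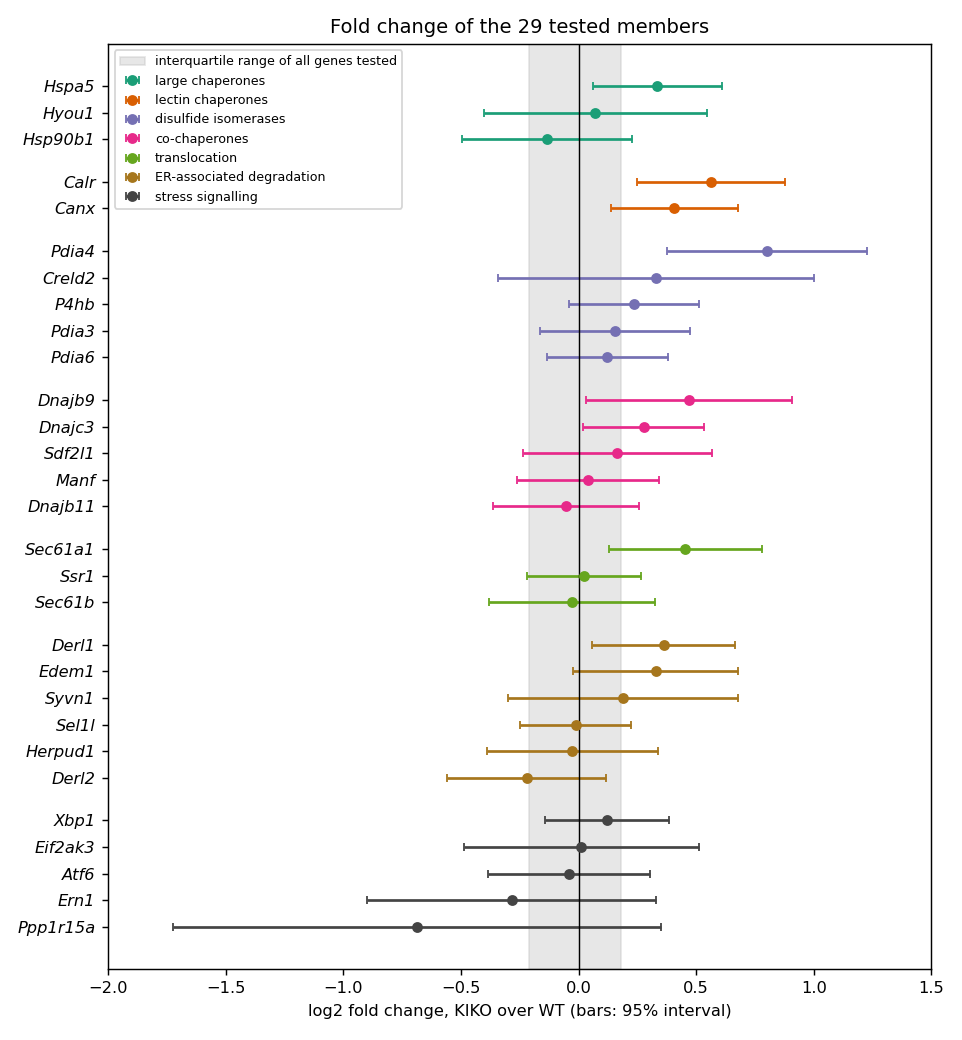
log2 fold change, KIKO over WT, of each of the 29 tested members, grouped and coloured by role, with 95% intervals from the edgeR fit, and a grey band for the interquartile range of all genes tested (-0.21 to 0.18). The intervals of 8 members lie wholly above 0, those of the 5 stress signalling genes all cross 0, and the fold change of Pdia4 is the farthest to the right at 0.80.

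Of the large chaperones, Hspa5 (ENSMUSG00000026864, chr2:34771970-34777547) encodes BiP, the ER member of the HSP70 family, which binds unfolded chains and holds the stress sensors inactive. It had 1178, 1189, 889.6 and 1027 CPM in KIKO mice 1 to 4, against 829.9, 862, 900.3 and 805 CPM in WT mice 1 to 4. KIKO mice 1, 2 and 4 lay above all WT mice, while KIKO mouse 3 lay inside the WT range (log2 fold change 0.33 ± 0.13 (SE), edgeR adjusted p = 0.216, 95% interval 0.060 to 0.61). Hsp90b1 (ENSMUSG00000020048, chr10:86690209-86705509), which encodes GRP94, the ER member of the HSP90 family, had 287, 428, 336 and 356 CPM in KIKO mice 1 to 4, against 496, 386, 271 and 391 CPM in WT mice 1 to 4. Its groups overlapped throughout, and its fold change pointed the other way (log2 fold change -0.14 ± 0.17 (SE), edgeR adjusted p = 0.738, 95% interval -0.50 to 0.23). The highest level of Hsp90b1 was in WT mouse 1, and without that mouse the log2 fold change was 0.0078. Hyou1, an ER chaperone that exchanges nucleotide on BiP, averaged 13.7 ± 1.26 CPM in KIKO and 13.0 ± 3.88 CPM in WT mice (SD, n = 4 each) with a log2 fold change of 0.071. Of these 3 chaperones, Hspa5 was thus the one with an unadjusted p under 0.05.

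The lectin chaperones calreticulin and calnexin bind glycoproteins through their trimmed glycan and retain them in the ER until they are folded. Calr (ENSMUSG00000003814, chr8:84841850-84846934) had 462, 651, 493 and 468 CPM in KIKO mice 1 to 4, against 433, 329, 309 and 332 CPM in WT mice 1 to 4. All 4 KIKO mice were above all 4 WT mice, with KIKO mouse 2 highest and WT mouse 1 the nearest of the WT mice (log2 fold change 0.56 ± 0.15 (SE), edgeR adjusted p = 0.0896, 95% interval 0.25 to 0.88). Without WT mouse 1 the log2 fold change was 0.68 and Calr passed (edgeR adjusted p = 0.0440), as it did in DESeq2 (adjusted p = 0.00989). A processed pseudogene, Calr-ps, is annotated, and how reads shared with it were counted is not given in the sources used here. Canx (ENSMUSG00000020368, chr11:50293961-50325673) had 290.1, 373, 275 and 289 CPM in KIKO mice 1 to 4, against 255, 213, 223 and 235 CPM in WT mice 1 to 4. Here too the groups did not overlap and KIKO mouse 2 was highest (log2 fold change 0.41 ± 0.13 (SE), edgeR adjusted p = 0.135, 95% interval 0.14 to 0.68). In DESeq2 Canx passed with an adjusted p of 0.0422. Calr and Canx were the 2 of 29 members whose groups did not overlap with KIKO above WT, or 6.90%, beside 3.89% of all genes tested, and 0 members had all KIKO mice below all WT mice, beside 4.56% of genes. For each, the 2-sided exact permutation test gave p = 0.0286, the smallest that 4 against 4 mice allow. Any gene whose groups do not overlap gets this p, so it adds nothing to the separation.

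**Figure D2:**
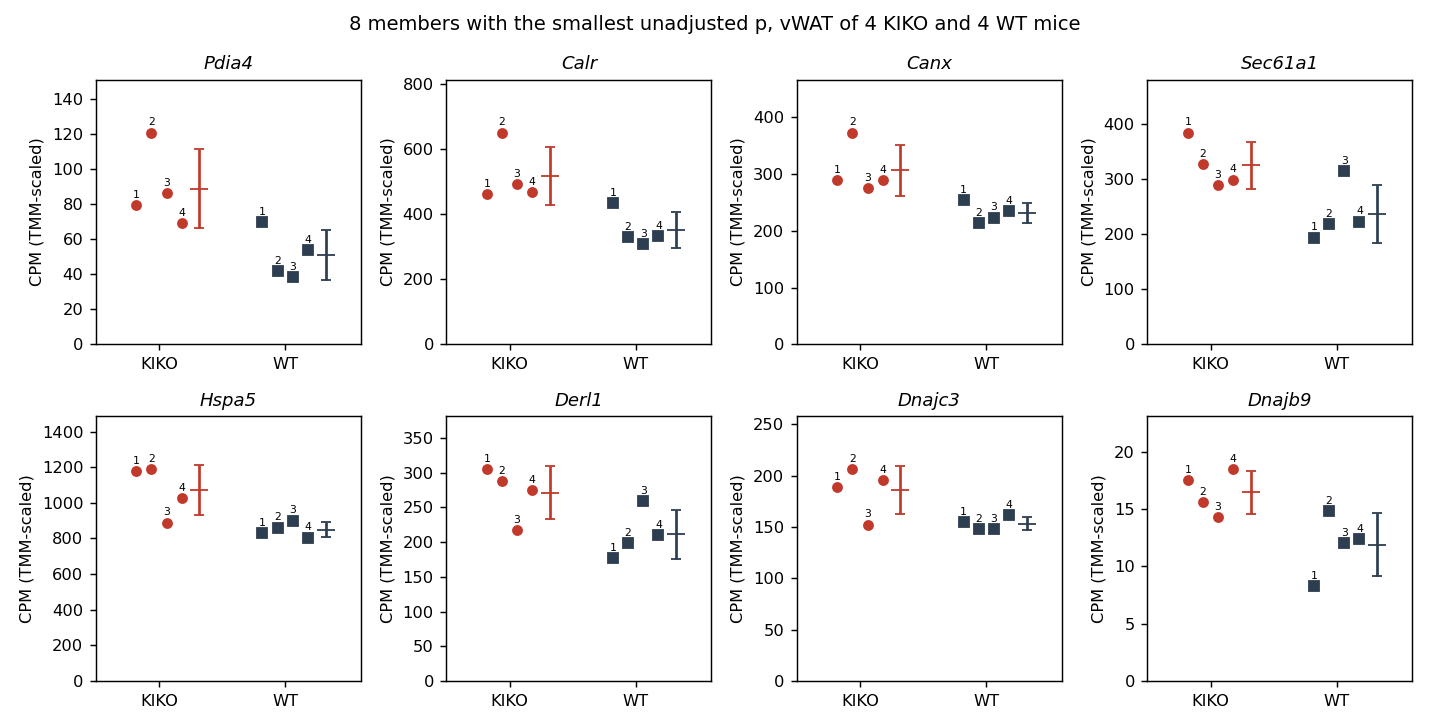
CPM (TMM-scaled) of the 8 members with the smallest unadjusted p in each KIKO mouse (circles, numbered) and each WT mouse (squares, numbered), with the mean and SD of each group beside the points and every axis starting at 0. KIKO and WT points are separate for Calr and Canx and overlap in the other 6 members, and WT mouse 3 stands above the other WT mice in Sec61a1 and Derl1.

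The protein disulfide isomerases make and exchange disulfide bonds in folding chains. Pdia4 (ENSMUSG00000025823, chr6:47796141-47813430), which encodes ERP72, had 79.2, 121, 86.2 and 69.1 CPM in KIKO mice 1 to 4, against 69.7, 41.8, 38.2 and 53.6 CPM in WT mice 1 to 4. KIKO mouse 4 lay just below WT mouse 1, and the other KIKO mice lay above all WT mice (log2 fold change 0.80 ± 0.20 (SE), edgeR adjusted p = 0.0782, 95% interval 0.37 to 1.22). Without WT mouse 1 the log2 fold change of Pdia4 was 0.99 and it passed (edgeR adjusted p = 0.0357), and it passed in DESeq2 as well (adjusted p = 0.0112). The other members of the group did not come near the threshold. P4hb, which encodes PDI itself and also a subunit of the collagen prolyl hydroxylase, averaged 211 ± 6.85 CPM in KIKO and 179.6 ± 30.04 CPM in WT mice (SD, n = 4 each) (log2 fold change 0.24 ± 0.13 (SE), edgeR adjusted p = 0.390). Pdia3, which works with the lectin chaperones, averaged 208 ± 26.9 CPM in KIKO and 186 ± 37.5 CPM in WT mice (SD, n = 4 each) (log2 fold change 0.15 ± 0.15 (SE), edgeR adjusted p = 0.655). Pdia6, which encodes P5, averaged 159 ± 15.9 CPM in KIKO and 146 ± 13.2 CPM in WT mice (SD, n = 4 each) (log2 fold change 0.12 ± 0.12 (SE), edgeR adjusted p = 0.658). Creld2, a stress-induced protein of the ER, averaged 10.5 ± 3.39 CPM in KIKO and 8.23 ± 3.25 CPM in WT mice (SD, n = 4 each) (log2 fold change 0.33 ± 0.32 (SE), edgeR adjusted p = 0.649). All 5 log2 fold changes of the group were above 0, with a median of 0.24. In WT mouse 3 the levels of Pdia3, Pdia4, Pdia6 and Creld2 were the lowest of all 8 mice.

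Proteins with a J domain hand unfolded chains to BiP and stimulate its ATPase. Dnajc3 (ENSMUSG00000022136, chr14:118937976-118981697), which encodes P58IPK, had 189, 206, 152 and 195 CPM in KIKO mice 1 to 4, against 155, 148, 148 and 162 CPM in WT mice 1 to 4. The 4 WT mice were close together and KIKO mice 1, 2 and 4 lay above them, while KIKO mouse 3 was within their range (log2 fold change 0.28 ± 0.12 (SE), edgeR adjusted p = 0.270). Dnajb9 (ENSMUSG00000014905, chr12:44205559-44210326), which encodes ERdj4, a negative regulator of IRE1, had 17.5, 15.6, 14.3 and 18.5 CPM in KIKO mice 1 to 4, against 8.24, 14.8, 12.0 and 12.4 CPM in WT mice 1 to 4. KIKO mouse 3 lay below WT mouse 2, and WT mouse 1 was the lowest of all (log2 fold change 0.47 ± 0.21 (SE), edgeR adjusted p = 0.270). Dnajb9 had 26 to 63 counts per library, so counting error is a larger part of its spread than for Dnajc3, Hspa5, Calr and Canx. Dnajb11, which encodes ERdj3, averaged 30.5 ± 1.40 CPM in KIKO and 31.7 ± 4.84 CPM in WT mice (SD, n = 4 each) with a log2 fold change of -0.053. Sdf2l1, which binds ERdj3, averaged 21.8 ± 4.43 CPM in KIKO and 19.2 ± 3.35 CPM in WT mice (SD, n = 4 each) with a log2 fold change of 0.16. Manf, a secreted ER protein that binds BiP, averaged 27.8 ± 1.49 CPM in KIKO and 26.9 ± 2.77 CPM in WT mice (SD, n = 4 each) with a log2 fold change of 0.041. Manf shares exonic bases with 3 other genes of the table (Dcaf1, Rbm15b and 4930524O07Rik), so reads there may have been assigned to either. The last 3 of these co-chaperones had adjusted p values from 0.711 to 0.911 in edgeR.

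The Sec61 channel carries nascent chains into the ER and the translocon-associated proteins sit beside it. Sec61a1 (ENSMUSG00000030082, chr6:88503579-88518905), the pore subunit, had 384, 326, 289 and 298 CPM in KIKO mice 1 to 4, against 193, 218, 314 and 222 CPM in WT mice 1 to 4. WT mouse 3 lay inside the KIKO range, and the other WT mice lay below every KIKO mouse (log2 fold change 0.45 ± 0.15 (SE), edgeR adjusted p = 0.167, 95% interval 0.13 to 0.78). Without WT mouse 3 the log2 fold change was 0.62 and Sec61a1 passed (edgeR adjusted p = 0.0167), as did Derl1, so that 2 of 29 members then passed as higher, beside 2.53% of all genes as higher and 3.28% as lower. Sec61a1 shares 549 exonic bases with an antisense gene, Gm44170, which had 0 counts in all 8 libraries. The small subunit of the channel, Sec61b, averaged 42.2 ± 7.01 CPM in KIKO and 43.1 ± 8.52 CPM in WT mice (SD, n = 4 each) with a log2 fold change of -0.029. Ssr1, a translocon-associated protein, averaged 102 ± 4.25 CPM in KIKO and 100.5 ± 8.36 CPM in WT mice (SD, n = 4 each) with a log2 fold change of 0.024. Neither Sec61b nor Ssr1 approached the threshold, with edgeR adjusted p values of 0.950 and 0.938.

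ER-associated degradation recognises misfolded proteins, moves them back to the cytosol and marks them for the proteasome. Derl1 (ENSMUSG00000022365, chr15:57869502-57892448), a membrane protein of the exit channel, had 305, 289, 217 and 275 CPM in KIKO mice 1 to 4, against 178, 198, 259.7 and 210.0 CPM in WT mice 1 to 4. KIKO mouse 3 lay inside the WT range and WT mouse 3 inside the KIKO range (log2 fold change 0.36 ± 0.14 (SE), edgeR adjusted p = 0.230). Without WT mouse 3 the log2 fold change of Derl1 was 0.48 and it just passed (edgeR adjusted p = 0.0497). Edem1, which selects glycoproteins for degradation, averaged 39.9 ± 3.02 CPM in KIKO and 31.9 ± 7.17 CPM in WT mice (SD, n = 4 each) (log2 fold change 0.33 ± 0.16 (SE), edgeR adjusted p = 0.343). Its lowest levels were in WT mice 1 and 2. Syvn1, which encodes the ubiquitin ligase HRD1, averaged 15.3 ± 3.96 CPM in KIKO and 13.5 ± 3.10 CPM in WT mice (SD, n = 4 each) (log2 fold change 0.19 ± 0.23 (SE), edgeR adjusted p = 0.731). Sel1l, the partner of HRD1, averaged 177 ± 5.05 CPM in KIKO and 179 ± 13.9 CPM in WT mice (SD, n = 4 each) (log2 fold change -0.013 ± 0.11 (SE), edgeR adjusted p = 0.967). Herpud1, a stress-induced membrane protein of the same complex, averaged 58.0 ± 15.8 CPM in KIKO and 59.0 ± 4.67 CPM in WT mice (SD, n = 4 each) (log2 fold change -0.027 ± 0.17 (SE), edgeR adjusted p = 0.955). Herpud1 was highest and lowest of all 8 mice in KIKO mice 1 and 3, so its spread lay within the KIKO group. Derl2, a relative of Derl1, had 97.4, 63.9, 54.4 and 65.6 CPM in KIKO mice 1 to 4, against 78.6, 86.6, 83.3 and 79.4 CPM in WT mice 1 to 4. In Derl2 the KIKO mice 2, 3 and 4 lay below all WT mice and KIKO mouse 1 above them (log2 fold change -0.22 ± 0.16 (SE), edgeR adjusted p = 0.528), and the gene shares 231 exonic bases with Mis12 on the opposite strand. Derl3, the third relative, was not tested: its raw counts were 2, 4, 2 and 4 in KIKO mice 1 to 4, against 3, 6, 0 and 5 in WT mice 1 to 4. For Derl3 the 2-sided exact permutation test of log2(CPM + 0.5), 4 against 4 mice, gave p = 0.914. So few counts allow no conclusion about a difference in this gene. Of the 6 tested members of this group, 3 had a log2 fold change above 0, and their median was 0.087.

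The stress sensors and signalling members had a median log2 fold change of -0.042. None of the 5 had an unadjusted p under 0.05, beside 16.2% of all genes tested, and 5 genes are too few to tell this from that share. Xbp1 (ENSMUSG00000020484, chr11:5520659-5525893), whose mRNA is spliced by IRE1 into the form that makes the active factor, had 57.8, 59.9, 69.0 and 70.01 CPM in KIKO mice 1 to 4, against 58.0, 56.0, 57.6 and 65.0 CPM in WT mice 1 to 4. KIKO mice 1 and 2 were inside the WT range and KIKO mice 3 and 4 above it (log2 fold change 0.12 ± 0.12 (SE), edgeR adjusted p = 0.677, 95% interval -0.14 to 0.38). Counts per gene hold the spliced and unspliced forms together, so the share of the spliced form was not measured. Atf6 (ENSMUSG00000026663, chr1:170704674-170867771), the sensor that is cut in the Golgi to release a transcription factor, had 30.7, 24.4, 36.9 and 29.0 CPM in KIKO mice 1 to 4, against 27.6, 36.0, 27.1 and 34.2 CPM in WT mice 1 to 4. The highest and the lowest level were both in KIKO mice (log2 fold change -0.042 ± 0.16 (SE), edgeR adjusted p = 0.922, 95% interval -0.39 to 0.30).

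Ern1 (ENSMUSG00000020715, chr11:106394650-106487852), which encodes IRE1, had 7.92, 4.40, 7.45 and 5.86 CPM in KIKO mice 1 to 4, against 5.07, 10.6, 9.04 and 6.70 CPM in WT mice 1 to 4. The groups overlapped, with WT mice 2 and 3 highest (log2 fold change -0.28 ± 0.29 (SE), edgeR adjusted p = 0.670, 95% interval -0.90 to 0.33). Eif2ak3 (ENSMUSG00000031668, chr6:70844515-70905245), which encodes PERK, had 8.25, 6.39, 8.75 and 7.32 CPM in KIKO mice 1 to 4, against 8.24, 6.97, 9.04 and 6.36 CPM in WT mice 1 to 4. The ranges of Eif2ak3 nearly coincided (log2 fold change 0.011 ± 0.23 (SE), edgeR adjusted p = 0.987, 95% interval -0.49 to 0.51). Ppp1r15a, which encodes GADD34, the phosphatase subunit that ends the translation block of PERK, had 1.65, 4.00, 5.18 and 6.15 CPM in KIKO mice 1 to 4, against 11.4, 9.69, 1.34 and 5.02 CPM in WT mice 1 to 4. WT mice 1 and 2 stood above all other mice in Ppp1r15a and WT mouse 3 was the lowest (log2 fold change -0.69 ± 0.49 (SE), edgeR adjusted p = 0.520). It had 4 to 36 counts per library and the widest interval of the members, from -1.72 to 0.35.

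**Figure D3:**
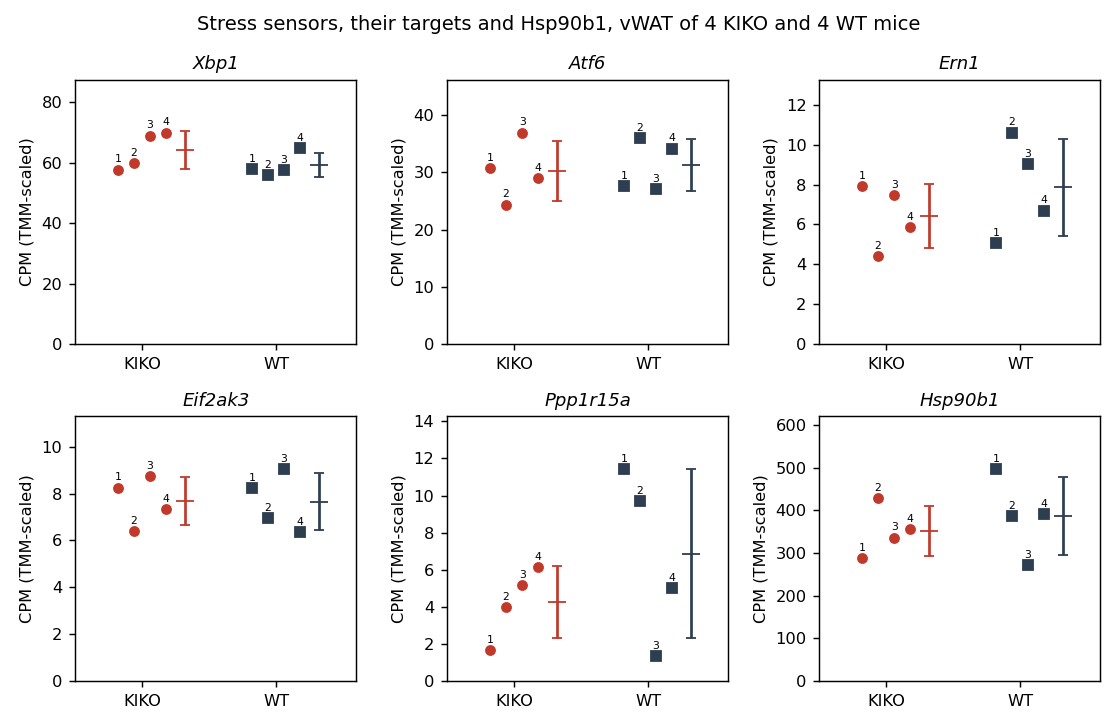
CPM (TMM-scaled) of Xbp1, Atf6, Ern1, Eif2ak3, Ppp1r15a and the chaperone gene Hsp90b1 in each KIKO mouse (circles, numbered) and each WT mouse (squares, numbered), with the mean and SD of each group beside the points and every axis starting at 0. KIKO and WT points overlap in all 6 genes, and the WT mice spread from 1.34 to 11.4 CPM in Ppp1r15a.

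Mouse by mouse, the members did not move as one block. The median over the 29 members of log2(CPM + 0.5) minus the WT mean was 0.11, 0.18, 0.092 and 0.17 in KIKO mice 1 to 4, against -0.025, -0.024, -0.047 and 0.051 in WT mice 1 to 4. The summed level of the members, most of which comes from Hspa5, Calr and a few more, was 4509, 4924, 4004 and 4308 CPM in KIKO mice 1 to 4, against 3842, 3644, 3678 and 3701 CPM in WT mice 1 to 4. All KIKO sums thus lay above all WT sums, but the sum mainly repeats its most abundant members. Of single genes tested, 3.89% had all KIKO mice above all WT mice, and no such share was computed for sums. KIKO mouse 2 had the highest level of 8 of the 29 members, where 11.3% of all genes tested were highest in that mouse, and among them were Calr, Canx, Pdia4, Pdia3, Creld2, Sdf2l1, Dnajc3 and Hspa5. WT mouse 1 was the highest in 5 members and the lowest in 8, where 20.8% of all genes were highest and 18.5% lowest in that mouse, and its Hsp90b1, Hyou1 and Ppp1r15a were high while its Dnajb9, Edem1 and Sec61a1 were low. WT mouse 3 was the lowest in 8 members, where 13.3% of all genes were lowest in that mouse, and stood near the KIKO mice in Sec61a1, Derl1, P4hb and Edem1. The heat map of each member in each mouse shows these blocks.

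**Figure D4:**
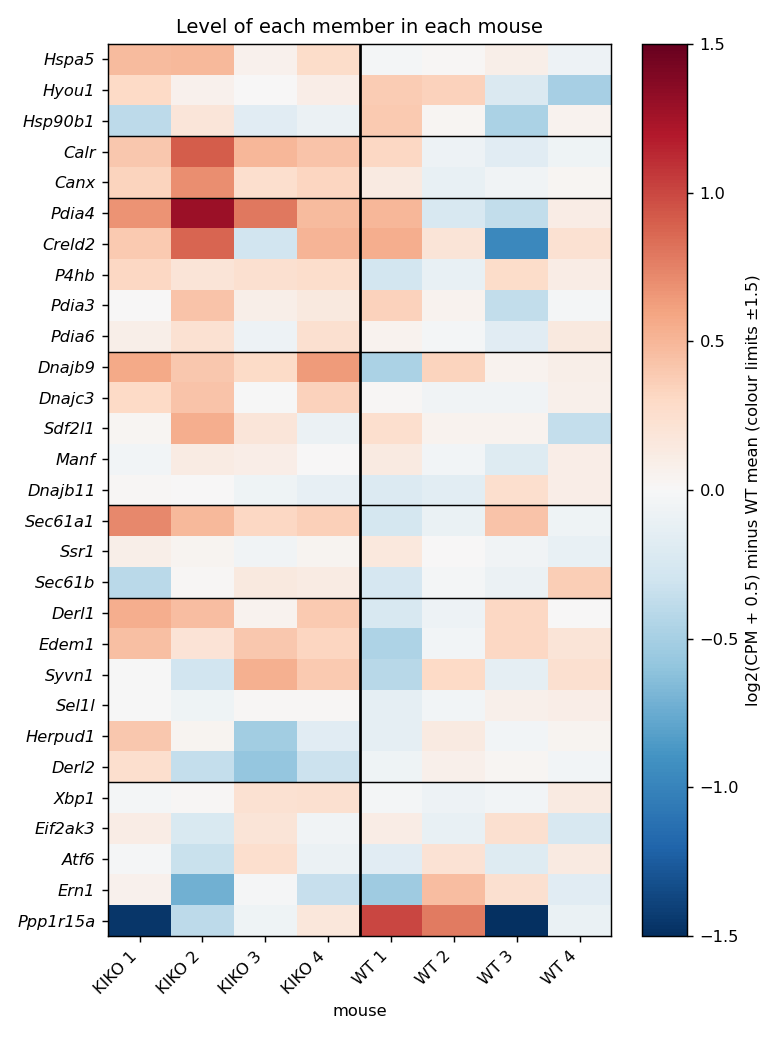
log2(CPM + 0.5) minus the WT mean of each tested member (down) in each of the 4 KIKO and 4 WT mice (across), with colours cut at 1.5 in either direction and lines between the roles. The strongest red is Pdia4 in KIKO mouse 2, the KIKO columns are red for Calr, Canx and Pdia4, and Ppp1r15a differs most between WT mice.

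Adipose tissue holds several cell types, and in bulk RNA fewer cells of a type and less RNA per cell cannot be told apart. The summed CPM of 7 macrophage markers was 1867 to 2208 in KIKO and 1468 to 1733 in WT mice, and that of 6 fibroblast and progenitor markers was 3146 to 3709 in KIKO and 2564 to 2828 in WT mice, both with no overlap (2-sided exact permutation test, 4 against 4 mice, p = 0.0286, the smallest possible). Within these lists Lyz2 passed as higher in KIKO mice (edgeR adjusted p = 0.0326) while C1qa had a log2 fold change of -0.054, and the fibroblast sum was mostly Dcn, with a log2 fold change of 0.41. Of the other fibroblast and progenitor markers, Col1a1 (-0.016), Col3a1 (-0.037) and Pi16 (-0.36) had log2 fold changes below 0, and the median of the list was 0.044. The summed CPM of 6 adipocyte markers was 19282 to 23305 in KIKO and 16996 to 20921 in WT mice, and that of 4 endothelial markers was 275 to 466 in KIKO and 422 to 556 in WT mice (exact permutation p = 0.114 and 0.0857). The part of these shifts in the values of the members was not tested. Plasma cells, which are rich in ER, were marked by 8 genes with a sum of 402 to 1256 CPM in KIKO and 582 to 1163 CPM in WT mice (exact permutation p = 0.886). Of these Irf4, which macrophages and adipocytes also express, passed as lower in KIKO mice (log2 fold change -1.90, edgeR adjusted p = 0.0442). The plasma cell sum was highest in KIKO mouse 2, which had the highest Calr, Canx and Pdia4, and most of it was Igkc. Jchain and Mzb1 were also highest in that mouse, while Ighm was highest in KIKO mouse 3 and Irf4 in WT mouse 1. The sum was next highest in WT mouse 2, with Calr at 329, Canx at 213 and Pdia4 at 41.8 CPM. The part of plasma cells in the values of the members was not tested. The sum of 4 mesothelial markers was 182 to 397 CPM in KIKO and 195 to 275 CPM in WT mice, and of these Krt19 passed as higher in KIKO mice (log2 fold change 1.15, edgeR adjusted p = 0.0326). The sum of 4 B cell markers was 4.86 to 32.8 CPM in KIKO and 9.71 to 17.8 CPM in WT mice. Markers of epididymis epithelium summed to at most 1.20 CPM in KIKO and 1.21 CPM in WT mice, with Lcn5, Lcn8 and Crisp1 at 0 counts, and the 3 testis germ cell markers had 0 counts in every library. Of 4 pancreas markers Prss1 and Pnlip had 0 counts in every library, and the sum was 41.2 to 50.7 CPM in KIKO and 25.7 to 59.2 CPM in WT mice. Nearly all of this sum was Cela1, and Cpa1 had 7 counts over all libraries.

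The other genes of the secretory route were looked at in 8 lists that do not contain the members. No gene of any list passed in edgeR, where 0.677% of all genes tested did. Their counts below stand beside 7.13% of all genes tested that were higher and 9.06% that were lower in KIKO mice at an unadjusted p under 0.05, and 49.0% with a log2 fold change above 0. Of 18 tested genes of N-glycosylation and glycan trimming, 5 had an unadjusted p under 0.05 and were higher in KIKO mice, and 0 were lower, with a median log2 fold change of 0.056. Ostc, a subunit of oligosaccharyltransferase, had 88.8, 101, 85.8 and 97.0 CPM in KIKO mice 1 to 4, against 65.9, 69.7, 70.6 and 55.9 CPM in WT mice 1 to 4, without overlap (log2 fold change 0.50 ± 0.12 (SE), edgeR adjusted p = 0.0735). Dad1, another subunit, had 169, 159, 151 and 178 CPM in KIKO mice 1 to 4, against 113, 98.4, 144 and 138 CPM in WT mice 1 to 4, also without overlap (log2 fold change 0.42 ± 0.13 (SE), edgeR adjusted p = 0.150).

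Of 20 other folding enzymes and oxidases, 2 were higher and 0 lower at an unadjusted p under 0.05, with a median of 0.10. Tmx1, a membrane-bound thioredoxin of the ER, had 79.2, 82.3, 70.3 and 72.6 CPM in KIKO mice 1 to 4, against 51.0, 50.9, 57.2 and 59.9 CPM in WT mice 1 to 4, and the groups were apart (log2 fold change 0.47 ± 0.12 (SE), edgeR adjusted p = 0.0858). Cnpy2 averaged 68.3 ± 3.47 CPM in KIKO and 50.0 ± 11.6 CPM in WT mice (SD, n = 4 each), again without overlap (log2 fold change 0.45 ± 0.16 (SE), edgeR adjusted p = 0.173). The 21 other translocation and signal peptide genes had 3 higher and 0 lower, and 19 of them had a log2 fold change above 0, with a median of 0.17. Among them Ssr2 averaged 59.2 ± 3.37 CPM in KIKO and 47.2 ± 3.45 CPM in WT mice (SD, n = 4 each), with all KIKO mice above all WT mice (log2 fold change 0.33 ± 0.12 (SE), edgeR adjusted p = 0.199), and Ssr4 averaged 186 ± 15.9 CPM in KIKO and 146 ± 25.4 CPM in WT mice (SD, n = 4 each), with overlap (log2 fold change 0.35 ± 0.13 (SE), edgeR adjusted p = 0.216).

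Of the 21 other ER-associated degradation genes, 2 were higher and 4 lower at an unadjusted p under 0.05, with a median of 0.042. Selenok, a selenoprotein of the ER membrane, averaged 80.3 ± 8.21 CPM in KIKO and 64.4 ± 5.40 CPM in WT mice (SD, n = 4 each) (log2 fold change 0.32 ± 0.13 (SE), edgeR adjusted p = 0.232). Vcp, the ATPase that pulls substrates out of the membrane, had 423, 443, 429.9 and 428 CPM in KIKO mice 1 to 4, against 529, 545, 475 and 526 CPM in WT mice 1 to 4, so that all KIKO mice were below all WT mice (log2 fold change -0.27 ± 0.11 (SE), edgeR adjusted p = 0.247). The 22 other stress signalling genes had 0 higher and 1 lower, with a median of -0.10, and 6 of them had a log2 fold change above 0. The lower one was Trib3, a target of ATF4, with 6.93, 7.19, 8.42 and 12.0 CPM in KIKO mice 1 to 4, against 11.1, 46.0, 6.36 and 22.4 CPM in WT mice 1 to 4. The WT values of Trib3 were widely spread and overlapped those of KIKO mice (log2 fold change -1.30 ± 0.46 (SE), edgeR adjusted p = 0.172). Atf3, another stress-induced factor, averaged 4.60 ± 1.93 CPM in KIKO and 7.51 ± 3.06 CPM in WT mice (SD, n = 4 each) (log2 fold change -0.73 ± 0.38 (SE), edgeR adjusted p = 0.368).

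Of 24 ER to Golgi genes, 2 were higher and 1 lower at an unadjusted p under 0.05, with a median of 0.11. Sar1a, a GTPase of COPII vesicles, averaged 145 ± 7.85 CPM in KIKO and 114 ± 12.0 CPM in WT mice (SD, n = 4 each) (log2 fold change 0.36 ± 0.12 (SE), edgeR adjusted p = 0.156), and Kdelr1, the receptor that returns chaperones to the ER, averaged 224 ± 12.2 CPM in KIKO and 187 ± 5.36 CPM in WT mice (SD, n = 4 each) (log2 fold change 0.26 ± 0.11 (SE), edgeR adjusted p = 0.254). In both, all KIKO mice were above all WT mice. Of 10 collagen folding genes, 1 was higher and 1 lower, with a median of -0.12. Serpinh1, which encodes the collagen chaperone HSP47, had 162, 136, 180.1 and 147 CPM in KIKO mice 1 to 4, against 84.6, 98.7, 121 and 131 CPM in WT mice 1 to 4, without overlap (log2 fold change 0.53 ± 0.15 (SE), edgeR adjusted p = 0.100), and Plod2, a collagen lysyl hydroxylase, averaged 8.45 ± 0.639 CPM in KIKO and 13.5 ± 5.25 CPM in WT mice (SD, n = 4 each) with overlap (log2 fold change -0.67 ± 0.27 (SE), edgeR adjusted p = 0.233). Cytosolic heat shock genes, which lie outside the ER, had 3 higher and 0 lower of 12, and the highest median of these lists, 0.30. Hspa8, the constitutive cytosolic HSP70, had 464, 322, 356 and 384 CPM in KIKO mice 1 to 4, against 214, 232, 322 and 264 CPM in WT mice 1 to 4, with WT mouse 3 just above KIKO mouse 2 (log2 fold change 0.56 ± 0.15 (SE), edgeR adjusted p = 0.0949), and Dnaja1, its J-domain partner, averaged 97.4 ± 16.0 CPM in KIKO and 71.5 ± 8.18 CPM in WT mice (SD, n = 4 each) without overlap (log2 fold change 0.45 ± 0.14 (SE), edgeR adjusted p = 0.137). The plot of the lists sets the members beside these groups.

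**Figure D5:**
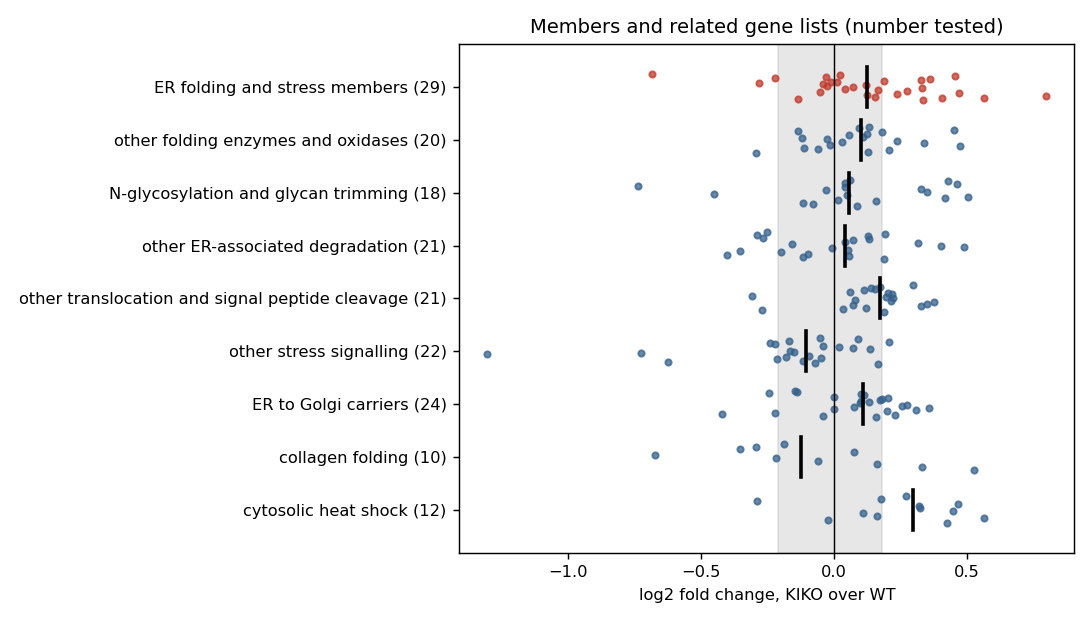
log2 fold change, KIKO over WT, of every tested gene of the members (red) and of 8 other lists (blue), with the number tested in brackets, a bar at each median and a grey band for the interquartile range of all genes tested (-0.21 to 0.18). The medians run from -0.12 in collagen folding and -0.10 in other stress signalling to 0.30 in cytosolic heat shock, with the members at 0.12.

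By promoter, the 10 tested members with an ERSE or ERSE-II had a median log2 fold change of 0.23, from -0.14 in Hsp90b1 to 0.56 in Calr, and 4 of them (Calr, Canx, Hspa5 and Dnajc3) had an unadjusted p under 0.05. The 14 members with a listed promoter and neither element had a median of 0.072, from -0.69 in Ppp1r15a to 0.80 in Pdia4, and 2 of them (Pdia4 and Dnajb9) had an unadjusted p under 0.05. For Pdia4 the listed promoter ends before the GENCODE start. The 5 members with no listed promoter had a median of 0.071, and 2 of them (Sec61a1 and Derl1) had an unadjusted p under 0.05. Of all genes tested, 16.2% had an unadjusted p under 0.05, and 7.13% had it and were higher in KIKO mice. Groups of 10, 14 and 5 genes are too small to set apart from each other by such counts. The ranges overlapped, Hsp90b1 with its 2 copies of the element was the lowest of its group, and no test of the difference between these groups was made.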

How the data were processed

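RNA of vWAT from 4 KIKO and 4 WT mice was sequenced, with 1 library per mouse. According to the study's methods and the submitters' processing notes, the authors trimmed reads with Trimmomatic, aligned them to GRCm38 with HISAT2 and used DESeq2, and the methods add StringTie for quantification. The authors deposited raw counts per Ensembl gene and a table of log2 values, which were checked to be log2 of 1 plus the count over a size factor of each library. The methods and the labels name different library kits and instruments, so whether counting used strand is unclear, and 11 members share exonic bases with another annotated gene, 7 of them with a gene of the count table.

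Differences were tested with edgeR 4.0.16 under R 4.3.3 (TMM, filterByExpr by genotype, the quasi-likelihood test in a model of genotype alone, Benjamini-Hochberg adjustment over 11080 genes, threshold 0.05). Library totals of 2602189 to 3478539 counts limit the precision of members with few counts. Symbols and positions came from GENCODE vM21 (31011 of 31053 genes matched), and 12961 genes had no count. The gene altered in KIKO mice is not reported here. No label says more of the mice than genotype, strain and tissue. The edgeR p values set the difference between genotypes against the spread of these mice within a genotype. No pair of libraries differed by less than the sampling noise. Alternatives were other scalings, other filters, DESeq2 1.42.0, limma 3.58.1 (voom, and trend on the authors' log2 values), the other edgeR estimator, the replicate number as a block, an offset for GC content and transcript length (mgcv 1.9.3), and leaving out each mouse.

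In a simulation of this comparison with 10933 genes, 75.5% of the 94 genes given a fold of 2 were recovered and 26.8% of the 97 given a fold of 1.5, with 4 false calls among 101. Its counts were drawn independently for each gene and without the trend with transcript length, so these shares may not hold for the real libraries. The members, the lists of related genes and the markers were chosen with earlier results of these data known. Full values are given for members that passed, for Hspa5, Hsp90b1, Xbp1, Atf6, Ern1 and Eif2ak3, and for the 8 members with the smallest unadjusted p, and per mouse also for Derl2 and Ppp1r15a, chosen after their values were seen. Other members are given as group means. Of each other list the 2 genes with the smallest unadjusted p are named, with values per mouse for some of them, chosen after their values were seen, and group means for the rest. Permutation tests were 2-sided and exact over the 70 assignments of 4 against 4 mice. Motifs were searched on both strands of RefSeq promoters of GRCm38.p6, which were not all listed.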

Additional observations from a re-analysis of the deposited data

Results flagged for a closer look

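Among 58 groups of 4 mice tested, 1 per member and genotype, a single mouse stood apart from the other 3 by Dixon's test at the 95% level in 2 groups, and chance alone gives about 1 in 20 groups. Calr in KIKO mouse 2 was at 651 CPM, while the other KIKO mice were at 462 to 493 CPM (gap over range 0.837). Canx in the same mouse was at 373 CPM, while the other KIKO mice were at 275 to 290 CPM (gap over range 0.846). Without KIKO mouse 2 the log2 fold change was 0.44 for Calr (edgeR adjusted p = 0.165) and 0.30 for Canx (edgeR adjusted p = 0.257), and all other KIKO mice still lay above all WT mice in both genes. The summed level of 8 plasma cell markers was also highest in KIKO mouse 2, at 1256 CPM, of which Igkc made up 715 CPM. Jchain (37.6 CPM) and Mzb1 (8.39 CPM) were also highest in KIKO mouse 2. The other markers of that list were highest in other mice: Ighm was highest in KIKO mouse 3 (529 CPM, and 468 CPM in KIKO mouse 2), Irf4 was highest in WT mouse 1 (13.6 CPM in KIKO mouse 2, against 70.1 CPM in WT mouse 1), and Tnfrsf17 had 0 counts in KIKO mouse 2. Their part in the values of Calr and Canx was not tested.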

How the results depend on the processing

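Over 29 members and 19 alternatives (551 values), 19 members kept the sign of their log2 fold change in every alternative, and no member passed in edgeR as analysed above. A member passed in 9 of these values: Calr and Pdia4 with no filter on low counts, Calr, Canx and Pdia4 in DESeq2, Calr and Pdia4 without WT mouse 1, and Derl1 and Sec61a1 without WT mouse 3. Sign changes were confined to members within 0.14 of no change. With scaling by library size only, the log2 fold change was -0.032 for Manf, -0.0070 for Hyou1, -0.058 for Eif2ak3 and -0.051 for Ssr1. It was 0.0060 for Sel1l with limma-trend on the authors' log2 values, and with the offset for length and GC content it was -0.020 for Manf, 0.091 for Atf6 and 0.086 for Sel1l alone, and -0.015, 0.086 and 0.093 for these genes with the replicate block added. Leaving out each mouse in turn gave -0.15 to 0.044 for Atf6, -0.12 to 0.038 for Dnajb11, -0.065 to 0.10 for Eif2ak3, -0.21 to 0.11 for Herpud1, -0.27 to 0.0078 for Hsp90b1, -0.075 to 0.20 for Hyou1, -0.018 to 0.087 for Manf, -0.11 to 0.11 for Sec61b, -0.057 to 0.023 for Sel1l and -0.013 to 0.079 for Ssr1.

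The count of members that passed was 2 with no filter, 3 in DESeq2 and 0 to 2 when each mouse was left out. The members' median was 0.050 with scaling by library size only and 0.085 to 0.17 when each mouse was left out. The number of all genes that passed depended strongly on the setting. It was 382 (146 higher and 236 lower in KIKO mice) with no filter, 259 (134 and 125) in DESeq2, 40 (17 lower) in limma-voom, 45 (20 lower) in limma-trend and 32 (13 and 19) with the length and GC correction, and 18 genes were higher with scaling by library size only. It was 0 to 654 genes (0 to 285 higher, 0 to 369 lower) when each mouse was left out, with 48, 0, 654 and 0 genes without WT mice 1 to 4 and 4, 19, 18 and 0 genes without KIKO mice 1 to 4. The cause of these differences was not tested.

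Replicate numbers did not pair the mice (correlations of same-numbered deviations from -0.15 to 0.03, and not every mouse correlated best with its own number). With the replicate block 0 genes passed (0 higher and 0 lower). In that fit 4 of 29 members had an unadjusted p under 0.05, beside 1427 of 11080 genes. In the fit without the block these were 8 of 29 members and 1794 of 11080 genes. With the block and the length and GC correction 4 genes passed (0 higher and 4 lower). At this depth members with few counts, such as Derl3, Ppp1r15a, Ern1 and Eif2ak3, have wide intervals.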
